A study of Mus musculus with 36 samples.

Results

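The 10 genes described here are linked with the granulocytes of allergy, that is mast cells, basophils and eosinophils: Cpa3, Ms4a2, Gzmb, Cd200r3, Cd200r4, Prg2, Fcer1a, Hdc, Rab44 and Igfbp7. They were chosen by symbol, and all 10 were found among the 55414 gene identifiers in both deposited count tables. They were followed in 36 RNA-seq libraries of mouse blood-forming cells, in 9 groups of 4 libraries. Every mouse carried the Kmt2a-AFF1 fusion gene, which is found in infant mixed lineage leukaemia. The 24 leukaemia libraries came from 12 mice with terminal disease whose genotype label is miR-130b overexpressing Kmt2a-AFF1+, while the series' design text names miR-130a. Each of those mice gave cells of 1 sorted type from bone marrow (BM) and from the central nervous system (CNS), which makes 4 mouse pairs for each of 3 cell types. The 12 control libraries came from the BM of mice labelled miR-scramble overexpressing Kmt2a-AFF1+, without leukaemia. Their mouse ids name 4 mice, each giving all 3 cell types, while the design text speaks of a single control mouse. The sources used here do not give the age of the mice, the promoter of the transgenes or the number of cells sorted.

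The sorted cells were all negative for lineage markers and positive for c-Kit. The HSC group (HSC/MPP in the labels, haematopoietic stem cells and multipotent progenitors) was Sca-1 positive and Flt3 negative. The LMPP group (lymphoid-primed multipotent progenitors) was positive for both Sca-1 and Flt3, and the LK group (LK/CLP in the labels) was negative for Sca-1. Levels are given in CPM (counts-per-million of the library total). Mean Ly6a, the gene of Sca-1, was 15.3 CPM in leukaemia BM HSC, 21.1 CPM in BM LMPP and 1.69 CPM in BM LK. Mean Flt3 was 51.0, 326 and 182 CPM in the same groups. Leukaemia BM LMPP library 1 had the lowest Flt3 of the 8 leukaemia LMPP libraries, 139 CPM.

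Mast cells and basophils arm themselves with IgE bound to the high-affinity receptor FceRI, which is built from an alpha chain (Fcer1a), a beta chain (Ms4a2) and a shared gamma chain (Fcer1g). When antigen cross-links the receptor they release granules that hold histamine, proteases and proteoglycan. Eosinophils carry granules filled with basic proteins instead. All of these cells arise from marrow progenitors in which the factor GATA2 acts, and precursors of the mast cell and basophil lines are c-Kit positive cells that such sorts can hold. In bulk libraries, fewer cells of a type and less RNA per cell cannot be told apart.

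Libraries held 1909638 to 30442297 counts in leukaemia and 3550349 to 21575930 counts in controls. A flat background of reads, estimated from 1776 sensory receptor genes that blood cells are not known to use, made up 0.450 to 26.7% of the counts in leukaemia libraries and 6.54 to 27.9% in control libraries. It was highest in control HSC (21.7 to 27.9%). A gene was called above background in a library when its count exceeded 3 times the background expected for its exon length plus 10 counts. A gene said to be within or at background only failed this rule, and its count can still exceed the expected background. Genes were tested with edgeR's quasi-likelihood test, once over all genes that reached 10 counts in 4 or more libraries and once over genes above background in 4 or more libraries. A gene passed at a Benjamini-Hochberg adjusted p under 0.05 over all genes tested. Groups are said not to overlap when their ranges of CPM are apart. The share of all genes without overlap was not counted in any comparison, so each lack of overlap is a description. The smaller gene set also changes the scaling between libraries. The first fit gives log2 differences that lie 1.65 lower for control HSC minus LK and 1.21 higher for leukaemia minus control HSC (medians over shared genes), so both fits are given throughout.

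Cpa3 encodes carboxypeptidase A3, a mast cell granule protease that early basophil and mast cell progenitors also transcribe. In leukaemia BM HSC libraries 1 to 4 it stood at 30.8, 83.8, 113 and 8.51 CPM, where background would give 0.769, 0.765, 0.896 and 2.68 CPM. In CNS HSC the values were 25.8, 36.5, 96.2 and 2.42 CPM. The HSC libraries of mouse 4 were the lowest in both niches. They were within background for Cpa3, and also for Ms4a2, Gzmb, Cd200r3, Cd200r4 and Hdc. Leukaemia LK was more even, with 39.6, 43.4, 20.5 and 31.7 CPM in BM and 80.2, 46.0, 24.98 and 32.8 CPM in CNS. BM LMPP held 1 library at 30.5 CPM and 3 at 1.62, 0.524 and 1.42 CPM. CNS LMPP held 2.72, 1.89, 0.994 and 0.656 CPM, below all 8 LK libraries. Control LK had 14.4, 13.8, 23.0 and 20.1 CPM. Control HSC had 3.85, 2.67, 4.79 and 6.20 CPM against a background of 2.45 to 2.99 CPM, and none of those 4 libraries was above background.

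Ms4a2, the FceRI beta chain, had its highest means in leukaemia HSC, with 19.9, 33.3, 43.7 and 8.42 CPM in BM and 15.1, 17.5, 31.8 and 4.01 CPM in CNS. Leukaemia BM LK held 4.61, 7.20, 5.31 and 2.73 CPM, all below the lowest BM HSC library, and CNS LK held 12.9, 19.0, 5.88 and 6.77 CPM. In LMPP it reached 4.57 CPM in BM library 1 and 2.84 CPM in CNS library 1, and the other 6 libraries ranged from 0 to 1.96 CPM. The 0 came from BM LMPP library 3, the shallowest, where 3 counts would be 1.57 CPM. Control LK held 11.4, 10.6, 13.5 and 10.1 CPM, above all control HSC libraries (4.64 to 5.92 CPM), which lay at background. Fcer1a, the alpha chain that binds IgE, was above background in 0 of 36 libraries and ranged from 0 to 4.08 CPM. Fcer1g, which many myeloid cells also use, was above background in all 24 leukaemia libraries and in 5 of 12 control libraries.

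Hdc encodes histidine decarboxylase, the enzyme that makes histamine. Its highest group was control LK, with 49.5, 47.1, 44.8 and 37.4 CPM. No library of any other group reached that range: leukaemia LK held 11.5, 24.6, 23.4 and 6.75 CPM in BM and 32.2, 17.1, 16.1 and 10.4 CPM in CNS. Leukaemia BM HSC held 13.6, 16.04, 15.6 and 21.3 CPM, and the last of these was within background. Control HSC held 20.3 to 22.9 CPM, 1.61 to 2.07 times the expected background, and also failed the rule for above background. Hdc has 6.389 kb of exon and collects more background reads than short genes. BM LMPP held 11.3 CPM in library 1 and 0 to 3.05 CPM in the other 3.

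Rab44, a large Rab GTPase of mast cell and bone marrow granules, was above background in all 24 leukaemia libraries. Leukaemia BM LK held 199, 297, 181 and 189 CPM, and CNS LK held 282, 151, 119.8 and 172 CPM. BM HSC held 138, 126, 216 and 102 CPM, and CNS HSC held 95.1, 52.1, 238 and 89.0 CPM. In BM LMPP, library 1 held 194 CPM and the others 20.4, 39.8 and 42.1 CPM, so only library 1 overlapped HSC and LK. CNS LMPP held 17.0, 25.4, 8.53 and 55.3 CPM. Control LK (199.8, 160.1, 147 and 153 CPM) lay within the leukaemia LK range, while control HSC held 16.3 to 22.4 CPM and control LMPP 12.3 to 30.1 CPM, none of them above background. Per kilobase of exon, Rab44 averaged 42.8 CPM per kb in leukaemia BM LK, against 22.3 for Cpa3, 19.6 for Prg2 and 1.76 for Ms4a2.

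Gzmb encodes granzyme B, a cytotoxic granule protease that basophil and mast cell progenitors can also carry. Among leukaemia groups its highest libraries were HSC, with 3.30, 15.8, 12.6 and 4.50 CPM in BM and 5.67, 11.1, 9.25 and 2.95 CPM in CNS. Both LMPP groups held 0 to 0.8288 CPM, with 0 of 8 libraries above background. BM LK held 2.14, 1.33, 1.01 and 0.152 CPM, none above background, while CNS LK held 2.19, 6.91, 1.96 and 1.57 CPM, all 4 above it. Control HSC held 4.98, 6.15, 5.90 and 4.51 CPM, all within background, and control LK 3.57, 3.30, 5.90 and 4.02 CPM, of which 3 were above it. Gzmb is also made by NK and T cells. Their 11 marker genes summed to 31.5 to 88.1 CPM in BM HSC, where background would give 12.9 to 45.4 CPM. In BM LMPP they summed to 16.3 to 24.99 CPM, where background would give 1.35 to 8.35 CPM. In each group 5 of the markers were above background in at least 1 library, and no marker was at 0 in all libraries. The part of NK and T cells in the Gzmb difference was not tested.

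Cd200r3 and Cd200r4 encode receptors of the CD200R family that signal through activating adaptors, and Cd200r3 protein is a surface marker of mouse basophils and mast cells. In leukaemia BM HSC, Cd200r3 held 18.2, 31.8, 31.0 and 10.2 CPM and Cd200r4 6.38, 10.4, 18.2 and 3.82 CPM. Library 4 was the lowest for both, and was within background (10.6 CPM for Cd200r3). In CNS HSC, Cd200r3 held 15.8, 19.5, 35.1 and 11.2 CPM. BM LMPP held 1.05 to 4.07 CPM of Cd200r3 and CNS LMPP 0.711 to 3.20 CPM, below all 8 HSC libraries. In controls neither gene was above background in any of 12 libraries. Of the 50-base words of Cd200r3 transcripts 2.79% occur in any other gene, and of those of Cd200r4 4.94%. The other gene with most of them was Tyms for Cd200r3 (1.93%) and Cd200r2 for Cd200r4 (2.99%). Words common to Cd200r3 and Cd200r4 were not counted apart.

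Prg2 encodes eosinophil major basic protein, and its order of groups differed from that of the mast cell genes. Leukaemia CNS LK held 51.5, 81.2, 32.5 and 49.8 CPM, whereas BM LK held 8.15, 38.9, 9.61 and 9.11 CPM, where only library 2 reached the CNS range. BM HSC held 8.11, 5.43, 4.91 and 24.2 CPM and CNS HSC 1.17, 5.80, 9.64 and 11.6 CPM. In LMPP, BM library 1 held 18.1 CPM and the other 7 libraries of both niches 0 to 3.52 CPM. Prg2 was the one member above background in control HSC (7.59, 6.85, 15.98 and 16.6 CPM, 4 of 4 libraries) and control LMPP (3 of 4).

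Igfbp7, a secreted protein that binds insulin-like growth factors, was low throughout. Leukaemia CNS HSC held 9.30, 3.14, 10.9 and 5.60 CPM, and CNS LK held 8.27, 8.01, 5.58 and 3.42 CPM. BM HSC held 1.69 to 4.31 CPM, with 1 of 4 libraries above background, and BM LK 1.55 to 5.87 CPM, all 4 above it. CNS LMPP held 0.368 to 0.710 CPM with no library above background. Control LK, at 0.893 to 1.30 CPM, lay below all 8 leukaemia LK libraries. Igfbp7 lies on the opposite strand of Polr2b, with which it overlaps, and 2.99% of its 50-base words occur there.

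**Figure D1:**
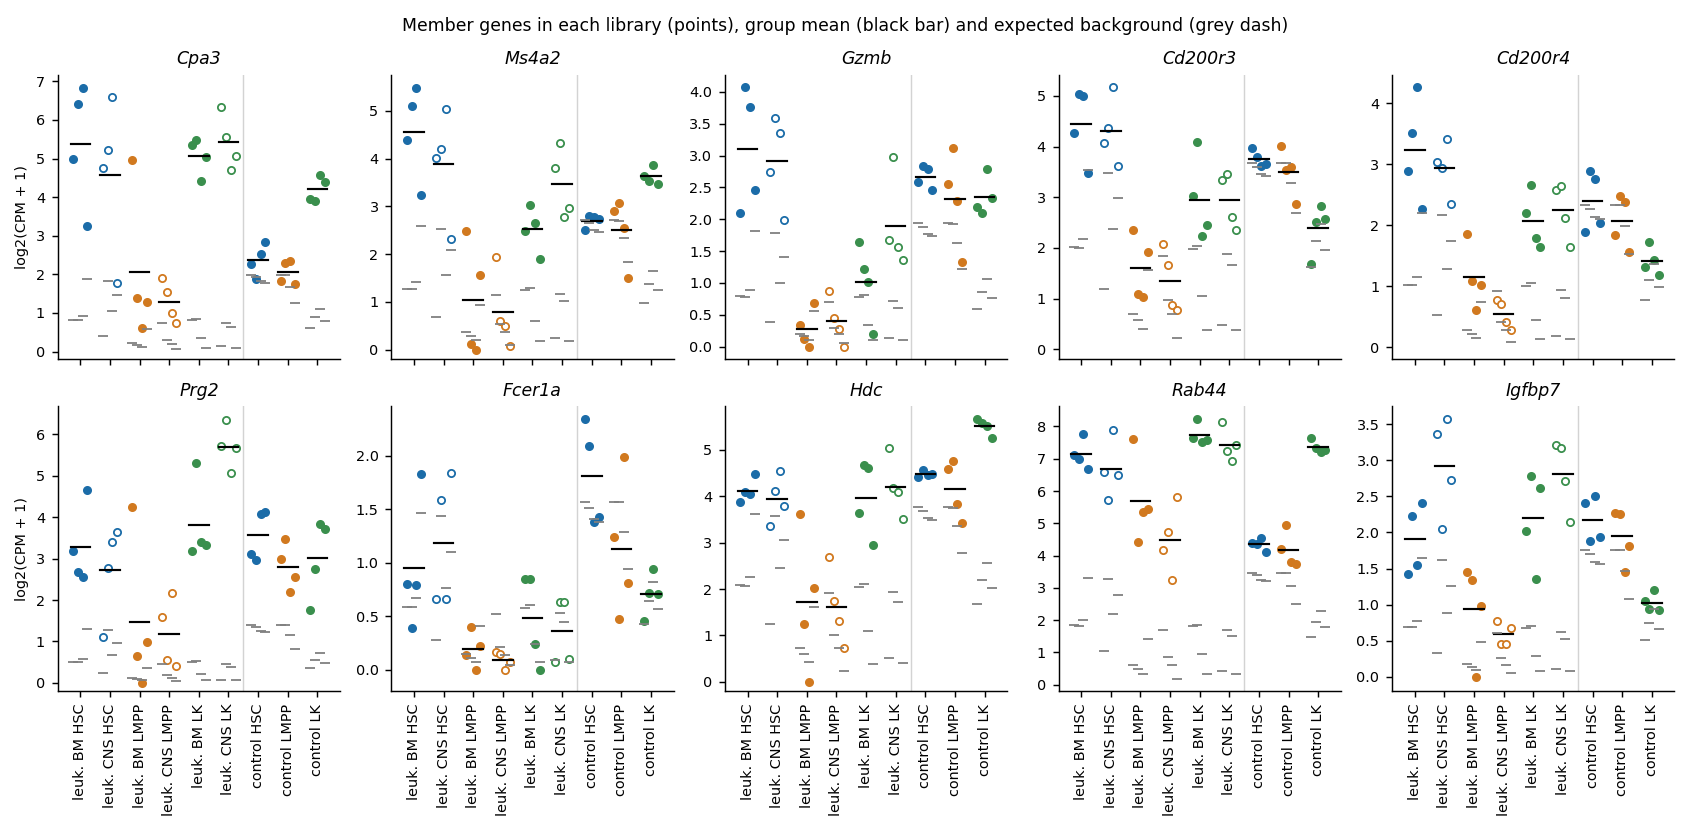
Level of each of the 10 genes as log2(CPM + 1) in each of 36 libraries, by group. Blue is HSC, orange LMPP and green LK; filled points are BM and open points CNS, black bars are means of the 4 log2 values and grey dashes the background expected in that library. LMPP libraries of leukaemia sit lowest for most genes except 1 BM library, and most control HSC and LMPP points sit near the grey dashes.

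Within leukaemia, the mast cell and basophil genes had their lowest means in LMPP cells, and more members passed in the CNS than in the marrow. Counts of passing members do not test 1 niche against the other. The direct test, the interaction of niche and cell type, passed 0 members and 0% of genes in both gene sets. In the CNS, 8 of the 9 members tested above background were higher in HSC than in LMPP, where 12.9% of all genes passed. These were Cpa3 (log2 difference 4.53, SE 1.02), Gzmb (4.36, SE 0.86), Ms4a2 (4.20, SE 0.87), Cd200r4 (3.77, SE 0.53), Igfbp7 (3.75, SE 0.54), Cd200r3 (3.48, SE 0.54), Hdc (2.56, SE 0.64) and Rab44 (2.11, SE 0.55). Adjusted p ran from 0.00338 for Igfbp7 and Cd200r4 to 0.0188 for Rab44. Prg2 was at 2.03 (SE 0.96, adjusted p = 0.130). Of these 8, Gzmb, Ms4a2, Cd200r4, Igfbp7, Cd200r3 and Hdc were above background in 0 of 4 CNS LMPP libraries and entered this gene set through other groups, so their count there is a description. For 6 of the 8, no CNS HSC library was as low as any CNS LMPP library, while Cpa3 and Rab44 overlapped. The share of all genes without overlap was not counted, so this is a description. Flat background made up 3.45 to 24.4% of counts in CNS HSC and 0.450 to 8.56% in CNS LMPP. Mean expected background was 5.63 and 1.08 CPM for Cd200r3 in these groups, and 6.01 and 1.16 CPM for Hdc. Cd200r3, Cd200r4 and Hdc were each above background in 2 of 4 CNS HSC libraries. The part of background in the differences between HSC and LMPP was not tested.

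That count depended on the gene set tested and on single libraries. Over all genes with at least 10 counts, all 10 members lay higher in CNS HSC (median 3.15, all genes 0.68), but only Igfbp7 passed (3.20, SE 0.66, adjusted p = 0.0465), where 0.0595% of genes did, while DESeq2 passed 9 members and 20.99% of genes. Igfbp7 did not pass without BM HSC library 1, 2 or 3, BM LK library 1 or 3, CNS HSC library 3 or 4, CNS LK library 2, 3 or 4, or CNS LMPP library 2 or 3. Over genes above background, 5 passed without CNS LMPP library 3. The macrophage and microglia markers summed to 1644 CPM in CNS HSC library 1 and 83.5 to 185 CPM in the other 3; without that library 7 members and 6261 genes passed over genes with at least 10 counts, and 8 members and 5270 genes over genes above background.

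The CNS also separated LMPP from LK. Over genes above background, 6 of 9 members were lower in LMPP, where 0.372% of genes passed: Prg2 (log2 difference -4.95, SE 1.03, adjusted p = 0.0390), Cpa3 (-4.85, SE 1.03, 0.0412), Igfbp7 (-3.61, SE 0.54, 0.00374), Cd200r4 (-3.02, SE 0.51, 0.0146), Hdc (-2.90, SE 0.65, 0.0489) and Rab44 (-2.79, SE 0.56, 0.0354). Ms4a2 (-3.69, adjusted p = 0.0532), Gzmb (-3.25) and Cd200r3 (-2.03) did not pass. Igfbp7, Cd200r4 and Hdc again entered the gene set through other groups. For none of the 9 did the LMPP and LK libraries overlap, but the share of all genes without overlap was again not counted. Over genes with at least 10 counts the differences were alike in size (Prg2 -4.82, Cpa3 -4.86, Igfbp7 -3.55), but 0 members passed in edgeR and 0.00496% of genes did. There 9 members had an unadjusted p under 0.05, and DESeq2 passed 6 (0.781% of genes). Without BM LMPP library 1 edgeR passed 4 there, and 1 without BM LMPP library 3 or CNS HSC library 2. Without CNS LK library 1 or CNS LMPP library 3, 1 member passed over genes above background, and 2 without CNS LK library 3 or 4 or CNS LMPP library 2. Without BM LMPP library 2, 8 passed. The other libraries gave 3 to 7, with 3 without BM HSC library 1 or 2, BM LK library 3, CNS LK library 2 or CNS LMPP library 4.

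In the marrow fewer members passed than in the CNS, which is a difference in counts and not a test between niches. The count changed with single libraries. Over genes above background, Gzmb (log2 difference 4.76, SE 0.89, adjusted p = 0.0421), Cd200r3 (3.04, SE 0.53, 0.0398) and Cd200r4 (2.56, SE 0.49, 0.0429) were higher in BM HSC than in BM LMPP, where 0.0694% of genes passed. Gzmb was above background in 0 of 4 BM LMPP libraries. Over genes with at least 10 counts 0 passed in edgeR (0% of genes; Gzmb 4.33, adjusted p = 0.0887), although 5 had an unadjusted p under 0.05 DESeq2 passed 4 (0.657% of genes), and 1 passed without CNS LMPP library 4. Leaving out BM LMPP library 1 raised the count above background to 7 members and 84 genes, with Cpa3 at 5.28 (SE 0.97, adjusted p = 0.0219) in place of 2.46 (0.168), Ms4a2 at 4.67 in place of 3.53, and Rab44 at 1.99 in place of 0.80. In 9 other cases the count fell to 0: without BM HSC library 2 or 3, BM LMPP library 2, 3 or 4, BM LK library 3, CNS LMPP library 2 or 3, or CNS LK library 3.

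BM LMPP library 1 held 2793 CPM of 9 mature neutrophil genes, against 7.19 to 18.7 CPM in the other 3 BM LMPP libraries. It also held the highest BM LMPP level of 8 members, all but Gzmb, highest in library 4, and Fcer1a, highest in library 2. Between BM LMPP and BM LK, 0 members passed in edgeR over genes with at least 10 counts (0% of genes, 4 members at an unadjusted p under 0.05, 0 members by DESeq2) and 0 over genes above background (0.00631%, 6 at an unadjusted p under 0.05). Without that library, Rab44 (-2.71, SE 0.47, adjusted p = 0.0101), Hdc (-3.15, SE 0.64, 0.0233), Cpa3 (-4.59, SE 0.95, 0.0244) and Prg2 (-4.48, SE 1.02, 0.0444) were lower in LMPP over genes above background, where 92 genes passed, and 3 of them over genes with at least 10 counts, where 39 did. What sets this library apart was not tested.

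Leukaemia HSC and LK differed less in these genes. In BM, 0 members passed in edgeR in either gene set (0% of genes with at least 10 counts and 0.0316% of genes above background), with 3 and 4 at an unadjusted p under 0.05, and DESeq2 passed Gzmb (0.206% of genes). The Ms4a2 libraries of the 2 groups did not overlap (log2 difference 2.27, SE 0.75, adjusted p = 0.179 above background), and neither did those of Gzmb (2.85, SE 0.76, 0.138). Neither gene passed, and Gzmb was above background in 0 of 4 BM LK libraries. Lack of overlap is a description here, as the share of all genes was not counted. In the CNS, 0 passed in either gene set (0% and 7.97% of genes, 2 members each at an unadjusted p under 0.05), and DESeq2 passed Prg2 (5.84% of genes). Prg2 lay lower in CNS HSC than in CNS LK without overlap, at -2.92 (SE 0.92, adjusted p = 0.0504) above background and -3.88 (0.0787) otherwise. Above background, 1 member passed without BM LK library 2, any 1 BM LMPP library, CNS HSC library 1 or CNS LMPP library 1, and 2 without BM HSC library 4 or CNS LMPP library 4. Over genes with at least 10 counts, 1 passed without BM HSC library 4, CNS HSC library 1 or CNS LK library 1.

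**Figure D2:**
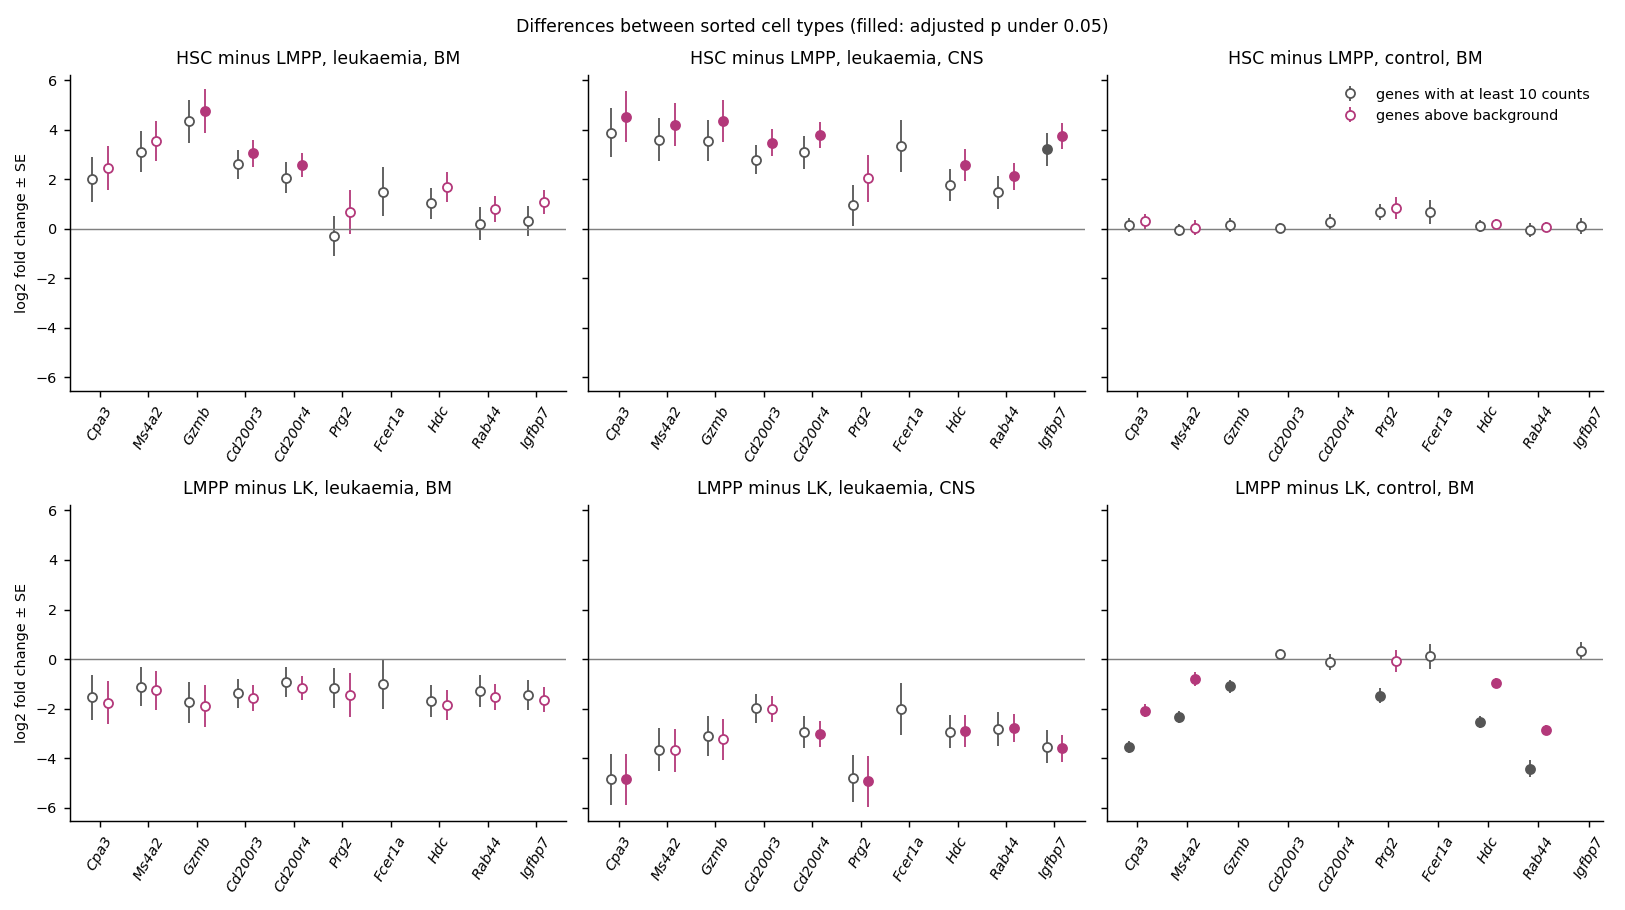
Log2 difference between cell types for each gene, with bars of 1 SE, in leukaemia BM, leukaemia CNS and control BM. Grey is the fit over genes with at least 10 counts, magenta the fit over genes above background, and filled points passed the test. In leukaemia the upper row lies above 0 and the lower row below 0 for most genes, with 8 filled magenta points for HSC minus LMPP in the CNS. In controls the upper row lies near 0 and Cpa3, Ms4a2, Hdc and Rab44 are filled in the lower row in both fits.

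In control marrow Cpa3, Ms4a2, Hdc and Rab44 were highest in LK cells, and no member passed between HSC and LMPP. Other members had a higher mean CPM in control HSC than in control LK. These were Cd200r3 (12.6 against 4.48), Cd200r4 (4.49 against 1.68), Fcer1a (2.65 against 0.642) and Igfbp7 (3.61 against 1.04), none of them above background in any control library. Gzmb (5.38 against 4.20) and Prg2 (11.8 against 8.36) also had higher means in HSC. Over genes with at least 10 counts, Rab44 (log2 difference -4.48, SE 0.33), Cpa3 (-3.42, SE 0.25), Hdc (-2.44, SE 0.25) and Ms4a2 (-2.40, SE 0.24) were lower in HSC than in LK without overlap, where 44.7% of genes passed. These 4 were above background in 4 of 4 control LK libraries and in 0 of 4 control HSC and LMPP libraries. They entered the smaller gene set only through LK, where they are high, so their values there are a description and no support: -2.78 for Rab44, -1.80 for Cpa3, -0.77 for Hdc and -0.76 for Ms4a2, where 70.4% of genes passed. Gzmb (-0.95) and Prg2 (-0.79) also passed over genes with at least 10 counts, but in the direction opposite to their mean CPM, and their CPM overlapped. Gzmb could not be tested above background, and Prg2 was at 0.75 (SE 0.43, adjusted p = 0.125) in that fit, the opposite direction. Without any 1 of the control LK libraries too few libraries were left above background for 4 members to be tested, and the count dropped to 0 or 1. Without control HSC library 1, 2 or 3 it was 3.

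LMPP against LK gave the same 4 genes in controls over genes with at least 10 counts: Rab44 -4.42 (SE 0.32), Cpa3 -3.55 (SE 0.25), Hdc -2.53 (SE 0.25) and Ms4a2 -2.36 (SE 0.24), without overlap. Above background, where the same limit holds and 66.1% of genes passed, they were at -2.86, -2.09, -0.97 and -0.81. In the larger gene set 6 members passed and 39.8% of genes did, with Gzmb at -1.10 and Prg2 at -1.48 beside the 4, and Prg2 was at -0.07 above background. Mean Gzmb CPM went the other way, at 4.50 in control LMPP against 4.20 in control LK. Without any 1 of the 4 control LK libraries the count above background was 0, because members were then no longer tested. Between control HSC and LMPP, 0 members passed in edgeR in either gene set (0.183% and 2.24% of genes). At an unadjusted p under 0.05, Prg2 alone stood out over genes with at least 10 counts (log2 difference 0.68, SE 0.32, adjusted p = 0.674) and none above background. The largest difference above background was that of Prg2, 0.82 (SE 0.45).

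Leukaemia was compared with control in the marrow, where both were sorted. The tables were deposited separately, so disease, microRNA and any batch between them cannot be told apart. In HSC, Cpa3, Ms4a2 and Rab44 were higher in leukaemia in both gene sets and without overlap, though the share of all genes without overlap was not counted. Above background the log2 differences were 3.78 (SE 0.81, adjusted p = 0.000767) for Cpa3, 2.85 (SE 0.46, 4.60e-05) for Rab44 and 2.22 (SE 0.57, 0.00349) for Ms4a2, where 48.2% of genes passed. In the larger gene set they were 5.13, 4.14 and 3.57, where 21.4% of genes passed, and Cd200r4 (2.38), Cd200r3 (2.17) and Gzmb (2.02) passed as well. Those last 3 were within background in all control HSC libraries, overlapped them in CPM and did not pass above background (Cd200r4 1.05, adjusted p = 0.0531; Cd200r3 0.84; Gzmb 0.72). Cpa3, Ms4a2 and Rab44 were also above background in 0 of 4 control HSC libraries and entered the smaller gene set through other groups. Their values there are a description. The mature neutrophil genes summed to 343 to 1103 CPM in leukaemia HSC and 65.5 to 91.0 CPM in control HSC, and their part in these differences was not tested. Without leukaemia BM HSC library 4, 5 members passed above background, and 4 without control HSC library 2 or BM LMPP library 1.

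In LMPP only Rab44 was higher in leukaemia in both fits, at 2.06 (SE 0.44, adjusted p = 0.000365) above background and 3.96 (SE 0.56) otherwise. Rab44 was above background in 0 of 4 control LMPP libraries. It entered the smaller gene set through other groups, so its value there is a description. Above background, Gzmb (-3.82, SE 0.67), Cd200r3 (-2.11, SE 0.45), Hdc (-1.89, SE 0.49), Igfbp7 (-1.23, SE 0.46) and Cd200r4 (-1.16, SE 0.47) were lower in leukaemia, where 64.6% of genes passed. None of the 5 was above background in any control LMPP library. In leukaemia BM LMPP, Gzmb was above it in 0 of 4 libraries, Cd200r3, Cd200r4 and Hdc in 1 each and Igfbp7 in 2. Mean expected background was higher in control LMPP for all 5, for Gzmb 2.26 CPM against 0.202 CPM in leukaemia BM LMPP. The part of background in these 5 differences was not tested. Over genes with at least 10 counts 62.8% passed, Gzmb was lower (-2.03) and Cpa3 (3.46) and Prg2 (1.83) were higher. The calls for Cpa3 and Prg2 rested on BM LMPP library 1: without it Cpa3 was at 0.28 (adjusted p = 0.685) and Prg2 at -1.58 (0.0270). Above background and without that library, Rab44 was at 0.84 (SE 0.26, adjusted p = 0.00900), and Ms4a2 (-2.46) and Prg2 (-3.18) were lower too, so that 8 members passed. Without control LMPP library 1, 2 or 3, BM HSC library 2, or BM LMPP library 3 or 4, 5 did. The Cpa3 libraries other than that one, 0.524 to 1.62 CPM, all lay below the control LMPP libraries (2.35 to 4.09 CPM), which were within background. In this comparison the first fit lies 1.65 higher in log2 than the second over shared genes, and Cd200r4, Prg2, Igfbp7 and Ms4a2 had opposite signs in them.

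In LK, Igfbp7 was higher in leukaemia in both gene sets, at 1.98 (SE 0.45, adjusted p = 0.00335) above background and 2.30 (SE 0.50, 0.00358) otherwise, and the groups did not overlap. It was the 1 member that passed over genes with at least 10 counts, where 3.52% of genes did. Above background 17.2% of genes passed, and Gzmb (-1.75, SE 0.56, adjusted p = 0.0310) and Hdc (-1.31, SE 0.45, 0.0460) were lower in leukaemia LK. Hdc missed the threshold without any of 15 of the 24 libraries (highest adjusted p 0.140), and Gzmb without any of 5 (highest 0.0884). Cpa3 (1.02, adjusted p = 0.336), Rab44 (0.48, 0.471) and Ms4a2 (-1.09, 0.181) did not pass. Without control LK library 3 or 4 or leukaemia BM LK library 4, only Igfbp7 passed. Igfbp7 was above background in 0 of 4 control LK libraries, and Gzmb in 0 of 4 leukaemia BM LK libraries. Both entered the smaller gene set through other groups, so their values there are a description. The mature neutrophil genes summed to 416 to 6575 CPM in leukaemia LK and 23.2 to 36.1 CPM in control LK, and their part was not tested.

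The leukaemia difference itself varied between cell types. In a test of the interaction of disease and cell type, Gzmb, Ms4a2, Rab44, Cd200r3 and Cpa3 passed over genes with at least 10 counts, where 12.6% of genes did. Above background 30.8% did, and Ms4a2, Gzmb, Cd200r3, Cd200r4, Rab44 and Igfbp7 passed, while Cpa3 had an adjusted p of 0.0928. Ms4a2 shows the pattern above background: 2.22 in HSC, -1.29 in LMPP and -1.09 in LK. Without BM LMPP library 1, 9 members passed above background and 7 over genes with at least 10 counts. Leaving out any 1 library, 3168 to 6272 genes passed above background and 2878 to 11626 over genes with at least 10 counts.

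**Figure D3:**
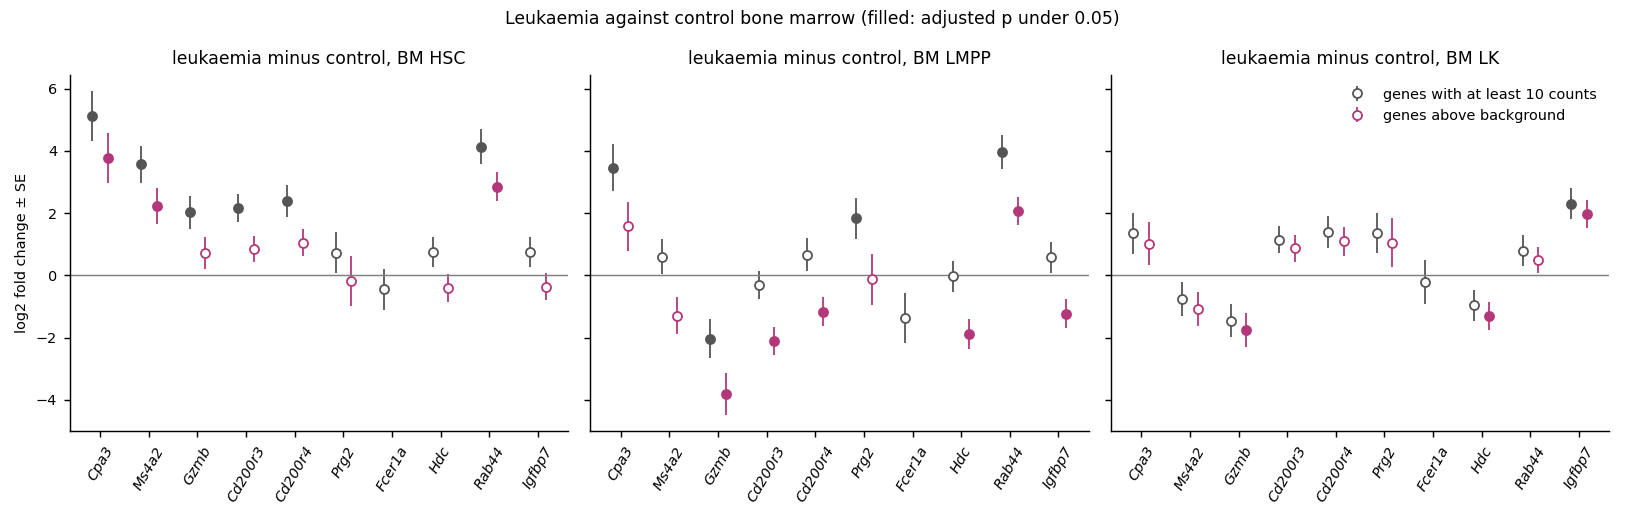
Log2 difference of leukaemia minus control BM for each gene in HSC, LMPP and LK, with bars of 1 SE. Grey is the fit over genes with at least 10 counts, magenta the fit over genes above background, and filled points passed the test. Cpa3, Ms4a2 and Rab44 are filled in HSC in both fits, Rab44 and Gzmb in LMPP, and Igfbp7 in LK.

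The niche comparison asked whether these genes differ between CNS and marrow cells of the same mouse, and no member passed it. In edgeR 0 members passed over all 3 cell types together, in HSC, in LMPP or in LK, in either gene set, and 0% of all genes passed in each of these 8 tests. With the mouse as a block, which pairs the BM and CNS libraries of 1 animal, 0 members passed as well, while 0.0744% of genes passed over all types (2.64% above background) and 2.03% above background in LMPP. Over genes with at least 10 counts, 0 members had an unadjusted p under 0.05 over all types, 1 in HSC, 3 in LMPP and 2 in LK; DESeq2 passed 0 members and 79 genes over all types. The interaction of niche and cell type also passed 0 members (0% of genes in both gene sets, 3 members each at an unadjusted p under 0.05, 0 by DESeq2). Counted over 12 mice, Cpa3, Ms4a2 and Hdc were each higher in the CNS in 6 and lower in 6.

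The most regular difference was that of Prg2 in LK cells. In mice 1 to 4 the CNS exceeded the marrow by 2.52, 1.04, 1.66 and 2.33 on the log2(CPM + 1) scale, and all 4 mice went the same way. The fitted difference was 2.02 (SE 0.82, unadjusted p = 0.0186, adjusted p = 1.00), and with the mouse as a block 2.19 (SE 0.61, unadjusted p = 0.00134, adjusted p = 1.00). Above background with the block it was 2.09 (adjusted p = 0.836), so it did not pass in any fit. Ms4a2 in LK went the same way in each mouse (1.31, 1.28, 0.12 and 1.06; fitted 1.34, SE 0.77), and so did Gzmb (0.02, 1.76, 0.55 and 1.16; fitted 1.63, SE 0.74, unadjusted p = 0.0346). Cpa3 in LK was also higher in the CNS in 4 of 4 mice (1.00, 0.08, 0.27 and 0.05), and Cd200r4 in LMPP lower in 4 of 4 (-1.08, -0.39, -0.19 and -0.74). In HSC the lean was to the marrow: Ms4a2 was lower in the CNS in 4 of 4 mice (-0.37, -0.89, -0.45 and -0.91) and Cpa3 too (-0.25, -1.18, -0.24 and -1.48). The mature neutrophil genes summed to 416, 6432, 6575 and 927 CPM in BM LK and 108, 347, 889 and 623 CPM in CNS LK, lower in the CNS in all 4 mice. Their part in the Prg2 difference was not tested.

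Igfbp7 was the member with the smallest unadjusted p in HSC (log2 difference 1.67, SE 0.60, adjusted p = 1.00). The 4 mice gave 1.94, -0.18, 2.02 and 0.32, of which 2 were large. Igfbp7 is also made by vessel and stromal cells. In mouse 1 the endothelial markers summed to 119 CPM in CNS HSC and 176 CPM in BM HSC. In mouse 3 they summed to 211 and 198 CPM. Stromal markers summed to 20.3 and 38.3 CPM in mouse 1 and to 57.3 and 49.8 CPM in mouse 3. Background would give 13.3 to 106 CPM of the stromal markers in CNS HSC and 31.4 to 110 CPM in BM HSC. Macrophage and microglia markers summed to 1644 CPM in the CNS HSC library of mouse 1 and 143 CPM in that of mouse 3. The part of such cells in the Igfbp7 difference was not tested. In LMPP, Cpa3 (fitted -2.60), Cd200r4 (-1.55) and Rab44 (-1.51) had unadjusted p of 0.0103, 0.0232 and 0.0296. The Cpa3 pairs were -3.08, 0.14, 0.39 and -0.54, and the Rab44 pairs -3.43, 0.31, -2.10 and 0.39, so mouse 1, the mouse of BM LMPP library 1, gave the largest difference for both. Above background and without that library, Cpa3 was at 0.26 (SE 0.97) and Rab44 at -0.26 (SE 0.43).

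**Figure D4:**
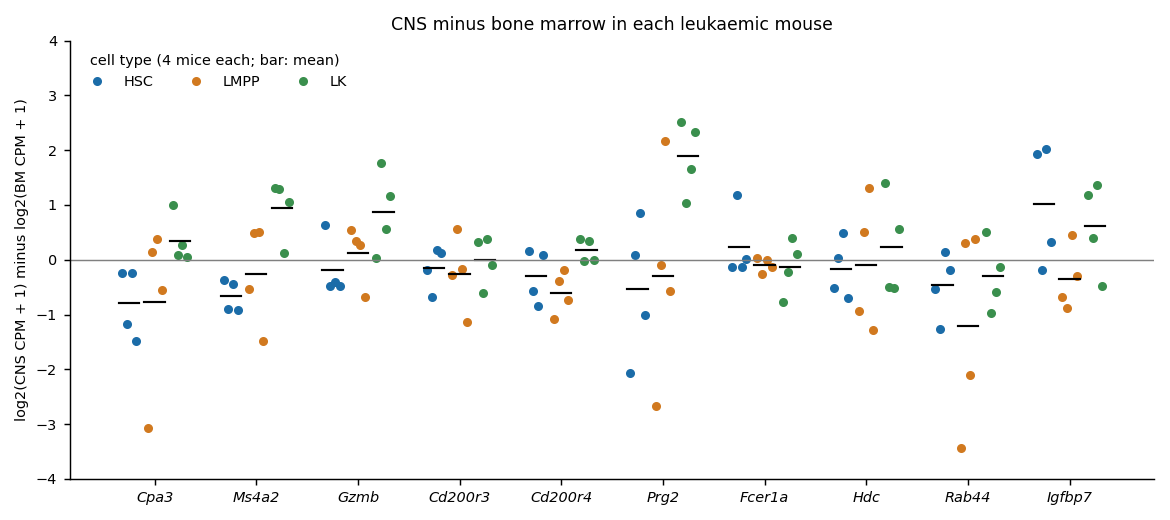
Difference of CNS minus BM in log2(CPM + 1) for each gene in each of 12 leukaemic mice, 4 for each cell type, with black bars at the mean of 4. Points of most genes spread to both sides of 0. Prg2 in LK (green) lies above 0 in all 4 mice, from 1.04 to 2.52, and the lowest orange points of Cpa3 and Rab44 are the same mouse.

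Across the 24 leukaemia libraries most members moved together. Pearson's r of log2(CPM + 1) was 0.96 for Cd200r3 and Cd200r4, 0.95 for Ms4a2 and Cd200r4, 0.94 for Ms4a2 and Cd200r3, 0.91 for Ms4a2 and Gzmb, and 0.88 for Cpa3 and Ms4a2. Prg2 stood nearer to Hdc (0.79) than to Gzmb (0.34). The points share cell type and library depth, and the coefficients are a description only. In the 12 control libraries Cpa3 went with Rab44 (0.92) and Hdc with Ms4a2 (0.96), while Cpa3 and Cd200r3, which was at background there, had r = -0.73. Outside the members, the genes most like Cpa3 over leukaemia libraries were Irak3 (0.90), Cd63 (0.87), Cpne2 (0.86), Slc22a3 (0.86) and Csgalnact2 (0.85), of 11729 genes with a mean of at least 5 CPM. In controls they were Fam241a (0.97), Uap1 (0.96), Ppp2r1b (0.96), Nploc4 (0.96) and Phf5a (0.96), of 19728.

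**Figure D5:**
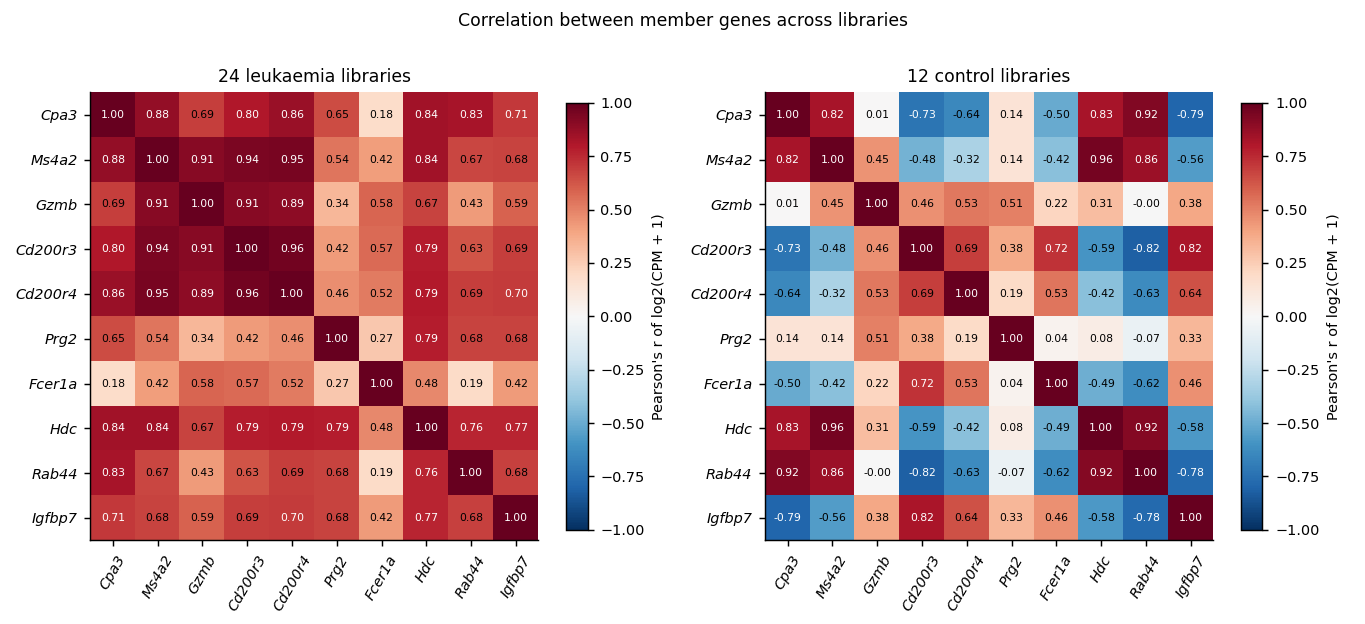
Pearson's r between each pair of genes, of log2(CPM + 1) over 24 leukaemia libraries and over 12 control libraries, on a colour scale from -1 (blue) to 1 (red). Ms4a2, Gzmb, Cd200r3 and Cd200r4 form a red block in leukaemia (0.89 to 0.96), and Fcer1a, at background, has low values.

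Since these genes moved together in leukaemia, their promoters were searched for short motifs on both strands. RefSeq (GRCm38.p6) gave a window of 250 bases before to 50 after the start for 8 of the 10 members; Prg2 and Rab44 had no entry. The GATA motif, the core that factors such as GATA1 and GATA2 bind, was taken as AGATAA or its form with a final G (AGATAG), and as TGATAA or its form with a final G (TGATAG). It was present in 6 of the 8 windows (Cpa3, Ms4a2, Cd200r3, Cd200r4, Fcer1a and Hdc) and in 29.8% of all 32851 promoter windows. Ms4a2, Cd200r3 and Cd200r4 held 3 matches each, and 1.76% of all windows held 3 or more. The 4 windows below belong to the most correlated genes and to Cpa3, with GATA matches in capitals. Cpa3 lies at chr3:20242132-20242431, minus strand, Ms4a2 at chr19:11623670-11623969, minus strand, Cd200r3 at chr16:44943428-44943727, plus strand, and Cd200r4 at chr16:44820478-44820777, plus strand.
Cpa3: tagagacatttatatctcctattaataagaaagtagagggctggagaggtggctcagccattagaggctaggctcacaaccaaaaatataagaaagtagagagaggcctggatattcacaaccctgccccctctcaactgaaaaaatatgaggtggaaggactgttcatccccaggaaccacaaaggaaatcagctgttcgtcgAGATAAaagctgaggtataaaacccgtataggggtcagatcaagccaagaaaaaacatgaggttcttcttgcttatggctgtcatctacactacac
Ms4a2: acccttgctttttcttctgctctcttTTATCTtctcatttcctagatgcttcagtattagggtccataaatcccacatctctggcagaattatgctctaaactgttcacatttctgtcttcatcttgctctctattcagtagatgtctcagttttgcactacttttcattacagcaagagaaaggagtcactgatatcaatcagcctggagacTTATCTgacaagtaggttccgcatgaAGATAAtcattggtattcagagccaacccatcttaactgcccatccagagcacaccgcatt
Cd200r3: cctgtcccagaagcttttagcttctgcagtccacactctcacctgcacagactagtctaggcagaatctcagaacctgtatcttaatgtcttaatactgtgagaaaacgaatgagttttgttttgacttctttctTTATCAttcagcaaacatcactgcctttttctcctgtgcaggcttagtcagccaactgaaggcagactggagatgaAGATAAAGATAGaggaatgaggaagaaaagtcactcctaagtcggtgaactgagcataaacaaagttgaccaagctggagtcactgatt
Cd200r4: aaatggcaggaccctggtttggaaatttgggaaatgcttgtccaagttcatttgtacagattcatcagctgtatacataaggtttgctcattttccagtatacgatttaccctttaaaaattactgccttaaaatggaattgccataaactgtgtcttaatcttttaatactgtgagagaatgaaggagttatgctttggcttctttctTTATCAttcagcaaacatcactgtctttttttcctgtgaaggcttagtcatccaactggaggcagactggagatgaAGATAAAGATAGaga
In Cpa3 the match began 46 bases before the start, and in Ms4a2 the nearest matches began 37 and 11 bases before it. Cd200r3 and Cd200r4 share part of the window: in an ungapped alignment of 226 bases 68.6% were identical, with a longest identical run of 32 bases. AGATAA followed directly by AGATAG falls within the aligned bases but outside that run, 39 bases before the annotated start of Cd200r3 and 35 bases after that of Cd200r4. Other motifs were less common among the members: the RUNX core TGTGGT lay in 3 of 8 windows (16.8% of all windows), the CEBP motif TTGCNNAA in 3 (10.8%), the ETS core AGGAAG in 2 (35.4%), the MITF E-box CACGTG or CACATG in 1 (20.4%) and the STAT motif TTCNNNGAA in 1 (8.30%). Igfbp7 held none of them. A match describes the sequence and is not a shown binding site.

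Other genes of the 3 lineages were looked up in the same libraries, and those named here were picked after their values were seen. Of 25 further mast cell genes, 8 were above background in at least 4 leukaemia libraries and 9 in none of the 36, among them the granule tryptases Tpsab1 and Tpsg1. The mast cell protease genes Cma1 and Mcpt1 were above background in 0 of 24 leukaemia libraries and Tpsb2 in 2, while Gata2 (22) and Slc18a2, the vesicle transporter that loads histamine (20), were above it in most. Of 20 basophil genes 14 were above background in at least 4 leukaemia libraries, including Mcpt8, the basophil granule protease, in 23. Prss34, Il4, Il6, Il13 and Itga2 of that list were above it in 0 of 24 leukaemia libraries. Of 16 matched eosinophil genes 9 were above background in at least 4 leukaemia libraries. The eotaxin receptor gene Ccr3 was above it in 0 of 36 libraries and Il5ra in 1. Of all 55414 gene identifiers, 15844 were above background in at least 4 leukaemia libraries. Epx and Prg3, further eosinophil granule genes, were both above background in 4 of 4 CNS LK libraries, and in 1 and 0 of 4 BM LK libraries. Epx held 2.54, 13.7, 3.73 and 6.42 CPM in CNS LK and 1.87, 4.18, 1.13 and 1.82 CPM in BM LK.

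These companions were tested in the same comparisons. Between leukaemia CNS HSC and LMPP, above background, where 12.9% of all genes passed, 4 of 8 mast cell genes were higher in HSC and 0 lower (median 1.25), led by Slc18a2 (2.47), Il1rl1 (2.09) and Hpgds (1.50). Of 14 basophil genes 6 were higher and 0 lower (median 1.24), led by Gata1 (3.44), Ms4a3 (2.82) and Csf1 (1.77), and of 9 eosinophil genes Siglecf (1.73) and Gfi1 (1.50) were higher (median 1.50, all genes 0.01). Il1rl1 and Gata1 were above background in 0 of 4 CNS LMPP libraries and entered this gene set through other groups. These counts are therefore a description. Expected background also differed between the 2 groups, and its part was not tested. Between leukaemia and control HSC, above background, where 48.2% of all genes passed, 5 of 15 basophil genes were higher and 4 lower (median -0.40, all genes -0.03): Mcpt8 (3.36), Ccl9 (3.22) and Il18rap (1.26) against Ifitm1 (-2.80), Csf1 (-1.04) and Gata1 (-0.89). Mcpt8, Ccl9, Il18rap and Csf1 were above background in 0 of 4 control HSC libraries. They entered this gene set through other groups, so their values are a description. In LMPP, where 64.6% of all genes passed, 4 basophil genes were higher and 8 lower (median -1.38), and in LK, where 17.2% did, 4 higher and 4 lower (median -0.19). No gene of the mast cell, basophil, eosinophil or IgE receptor lists passed between CNS and BM in edgeR, in either gene set.

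Most genes of IgE receptor signalling were higher in leukaemia than in control in each cell type. Above background 10 of 14 were higher and 2 lower in HSC (median 0.90, all genes -0.03), 11 higher and 3 lower in LMPP (1.09, all genes 0.02) and 10 higher and 1 lower in LK (0.72, all genes -0.04). Of all genes 48.2% passed in HSC, 64.6% in LMPP and 17.2% in LK, in either direction. Fcer1g and Milr1 were above background in 0 of 4 control HSC and 1 of 4 control LMPP libraries. Gab2 was above it in 1 of 4 libraries of each. They entered this gene set through other groups, so the counts in HSC and LMPP are a description. Fcer1g was higher by 2.48, 2.56 and 1.77 in log2, Lyn, the kinase that starts the cascade, by 2.06, 2.43 and 1.80, and the adaptor Lat2 by 1.90, 1.69 and 2.10. Plcg1, a phospholipase of the cascade, was lower in all 3 (-1.11, -1.32 and -0.76). Many of these genes are used by other myeloid cells, and the binding chain Fcer1a was at background throughout.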

How the data were processed

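The members and gene lists were chosen with earlier results of these data known. RNA of sorted cells was made into libraries with the SMARTer Stranded Total RNA-Seq Pico kit, per the labels' protocols. The authors deposited 1 count per gene and library in 2 tables, leukaemia and control. The values are called normalised but are whole counts with unequal totals, so they were used as counts; DESeq2 and genome build GRCm39 are named in the submitters' processing notes, with no DESeq2 version, while no source used here gives the aligner, counter or strand setting. Gene lengths, coordinates and promoters come from GRCm38 annotation.

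Groups were tested with edgeR 4.0.16 (R 4.3.3, limma 3.58.1; TMM, quasi-likelihood, two-sided, Benjamini-Hochberg over all genes tested) on genes that reached 10 counts in 4 or more libraries. The leukaemia fit held 40332 genes and 24 libraries, the control fit 41609 genes and 12 libraries, and the joined marrow fit 43483 genes and 24 libraries. The fits on genes above background held 15844, 11094 and 15230 genes. Other alternatives were a replicate block (the mouse for CNS against BM and for control cell types, otherwise a replicate number that different mice share), DESeq2 1.42.0, no filter and leaving out each library. Leaving out libraries above background, and that gene set with the block, were added after seeing the data. Scripts were tested on simulated data. Mouse ids pair the BM and CNS libraries of 1 animal; deviations of the 12 pairs correlated with a median r of 0.16 (from -0.53 to 0.75), over 0.1 in 6. All 10 members were named, and of each list at most the 3 largest changes per direction past the threshold, apart from those said to be picked later.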

Additional observations from a re-analysis of the deposited data

Results flagged for a closer look

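Prg2 in leukaemia BM LK library 2, at 38.9 CPM, lay far from the other 3 libraries of its group (8.15, 9.61 and 9.11 CPM) for the spread among them. It was the 1 such library in 90 sets of 4 values of the members, where chance alone gives about 1 in 20.

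The difference between leukaemia and control marrow varied between HSC, LMPP and LK for 5 members, by edgeR's test of the interaction over genes with at least 10 counts. The adjusted p was 0.00130 for Gzmb, 0.00154 for Ms4a2, 0.00235 for Rab44, 0.0179 for Cd200r3 and 0.0223 for Cpa3. In HSC, LMPP and LK the log2 difference was 2.02, -2.03 and -1.46 for Gzmb, 3.57, 0.60 and -0.76 for Ms4a2, 4.14, 3.96 and 0.79 for Rab44, 2.17, -0.31 and 1.15 for Cd200r3, and 5.13, 3.46 and 1.35 for Cpa3.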

How the results depend on the processing

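The count of members that passed between CNS and BM, and in the interaction of niche and cell type, was 0 in every alternative run, including the replicate block. Between leukaemia cell types, and between leukaemia and control, libraries come from different mice and share only a replicate number. With that number as a replicate block, the count for CNS HSC against LMPP went from 1 (0.0595% of all genes passed) to 0 (0.0149%). DESeq2 gave 1 for HSC against LK in BM (0.206% of all genes passed) and 1 in CNS (5.84%). It gave 4 for BM HSC against LMPP (0.657%), 6 for CNS LMPP against LK (0.781%) and 9 for CNS HSC against LMPP (20.99%). For leukaemia against control LK it gave 2 (8.07%). With no filter the counts were 1 for BM HSC against LMPP, 1 for CNS HSC against LK, 6 for CNS LMPP against LK and 6 for CNS HSC against LMPP. Over genes above background they were 3 for BM HSC against LMPP (0.0694%), 6 for CNS LMPP against LK (0.372%) and 8 for CNS HSC against LMPP (12.9%). For leukaemia against control they were 3 in HSC (48.2%) and 3 in LK (17.2%). With the replicate block as well they were 2 for BM HSC against LMPP (0.0631%), 6 for CNS LMPP against LK (0.335%) and 8 for CNS HSC against LMPP (9.51%). They were then 1 for CNS HSC against LK (5.54%) and 2 for leukaemia against control LK (15.3%).

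Some signs reversed over genes above background, without and with the block: Prg2 in control HSC against LK (0.75 and 0.85), and in leukaemia against control LMPP Cd200r4 (-1.16 and -1.05), Prg2 (-0.13 and -0.28) and Igfbp7 (-1.23 and -1.30). Prg2 in control LMPP against LK reversed with the block (0.17), and Prg2 in leukaemia against control LMPP reversed without BM LMPP library 1 (-1.58; leaving out any 1 library gave -1.58 to 2.21). The cause was not tested.

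Leaving out 1 library over genes with at least 10 counts, the counts ran from 0 to 3 for BM LMPP against LK, 0 to 1 for BM HSC against LMPP and CNS HSC against LK, 0 to 4 for CNS LMPP against LK, 0 to 7 for CNS HSC against LMPP and 4 to 7 for the interaction of disease and cell type. Over all genes, 0 to 39, 0 to 10 and 0 to 5190 passed in the cell type comparisons named first. The rest gave, in the order above, 0 to 16, 4 to 6261 and 2878 to 11626 genes. Depth limits the shallowest library, BM LMPP library 3, where 3 counts are 1.57 CPM.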
